A study of Mus musculus with 24 samples.

Results

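Mm050, Mm051 and Mm052 are 3 consecutively numbered probes on a focused mouse array, and they were followed through the phenobarbital response of liver with and without the receptors CAR and PXR. They are 3 of the 120 mouse probes on the array, of which 80 were bright enough to be tested, and each is printed as 3 spots, or 9 of 360 probe spots per array. The probes were chosen by their measured log2 ratios of phenobarbital-treated liver over the vehicle pool, which had been seen to be high in the same genotypes of these arrays. Their ratios are therefore given as a description, with no test of their own. The files and the labels pair no probe number with a gene, so no gene name, role or sequence is given, and neighbouring numbers say nothing here of shared function.

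The livers came from male C57BL/6J mice that had received 100 mg/kg phenobarbital intraperitoneally and were killed 12 h later. There were 6 arrays for each of 4 genotypes: CAR/PXR-deficient, PXR-deficient, CAR-deficient and wild type (WT). Each array set treated liver (Cy5) against a genotype-matched pool (Cy3) of 6 livers from mice injected with the vehicle, 5% DMSO in corn oil, and dyes were never swapped. The labels give an age of 9 to 12 weeks for the deficient mice and none for WT. For WT replicate 1, 1 label of the Cy3 channel names phenobarbital, but its source name and protocol give the vehicle pool and it was read as that. The alleles behind the deficiencies are not described in the labels, and without gene names neither the genotypes nor the tissue could be checked against transcripts. Nor do the labels state that the arrays of a group came from separate mice, so the spread between them may be technical. PXR-deficient replicates 1 and 2 differed by about as much as copies of a spot within an array, with a variance ratio of 1.03 against 1.79 to 52.9 in the other pairs of arrays, and were counted as 1 sample. This left 23 samples, 5 of them PXR-deficient.

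CAR and PXR are nuclear receptors of the hepatocyte that switch on genes for the oxidation, conjugation and export of foreign and endogenous compounds. Phenobarbital is a classic activator of CAR, which moves into the nucleus of treated hepatocytes, and it can also activate PXR. The receptors share many target genes and DNA elements, so mice lacking either or both are used to tell which receptor an induced transcript depends on.

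All 3 probes were bright in both channels on all 24 arrays, that is, over local background by 2 SD in at least 2 spots. Some pool signals were nonetheless not far above background. In WT pools Mm051 had 1159 against a background of 451 (replicate 2) and 3206 against 1460 (replicate 5). Mm050 had 3632 against 1390 in the pool of replicate 5. Mean scanned intensity ran from 2100 to 33699 in treated liver and from 1306 to 23024 in the pools for Mm050. It ran from 811 to 22130 in treated liver and from 1159 to 18052 in the pools for Mm051. Mm052 was the brightest of the probes, with 2472 to 59664 in treated liver and 4946 to 61683 in the pools, near the ceiling of the scanner. No spot of Mm050 or Mm051 held saturated pixels, but 32 of the 72 spots of Mm052 did, on 11 of 24 arrays. The channel that saturated differed between genotypes. In CAR/PXR-deficient liver it was the vehicle pool, on 4 of 6 arrays, and also the treated channel on 1 of those. Mean intensities of Mm052 in replicates 1 to 6 were 2472, 8934, 25197, 43709, 35523 and 44750 in treated CAR/PXR-deficient liver, against 59615, 57194, 35703, 54573, 35242 and 61683 in its pool. The treated channel was dim beside the pool on the first 2 of these arrays. In PXR-deficient liver it was the treated channel on 5 of 6 arrays, with intensities of 39210 to 58795 in treated liver against 8137 to 26095 in the pool. In WT it was the treated channel of replicates 1 and 5, at 59664 and 51793 in treated liver against 15642 and 7788 in the pool. No CAR-deficient array had saturated spots of Mm052, whose intensities were 10703 to 25658 in treated liver against 6534 to 19407 in the pool. Before normalization, a saturated treated spot makes a ratio a lower bound and a saturated pool spot makes it an upper bound. Arrays with 1 saturated channel are thus bounded from opposite sides in CAR/PXR-deficient and PXR-deficient liver. CAR/PXR-deficient replicate 4, with saturated pixels in both channels, has no such bound, and replicates 3 and 5 were not saturated.

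Copies of a probe within an array lay close together, with a median SD over spots of 0.08 for Mm050, 0.08 for Mm051 and 0.09 for Mm052 on the log2 scale. The widest SDs were on CAR/PXR-deficient replicate 1, at 0.61 for Mm050, 0.57 for Mm051 and 0.24 for Mm052. The copies are spread over the array. Mm050 and Mm052 lie in block 1, Mm052 always 1 row after Mm050 in the same column, and Mm051 lies in block 2 at the same rows and columns as Mm050. Probes next to each other on the glass, as Mm050 and Mm052 are, share any local unevenness of the hybridization, and its part in their values was not tested.

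The response was largest in PXR-deficient liver for each of the 3 probes. There Mm050 had a mean log2 ratio of 1.46 ± 0.42 (SD, n = 5), 2.75-fold over the vehicle pool, Mm051 1.44 ± 0.21 (2.72-fold) and Mm052 1.83 ± 0.17 (3.57-fold). They took the 5th, 6th and 3rd highest means of the 80 probes, and the ratio was above 0 in 5 of 5 samples for each. By sample, in replicate order with replicates 1 and 2 averaged, Mm050 had log2 ratios of 2.03, 1.72, 1.38, 1.23 and 0.94. Mm051 had 1.76, 1.52, 1.25, 1.41 and 1.26, a narrower span in which no sample stood apart. Mm052 had 1.98, 1.85, 1.65, 2.02 and 1.68. The small spread of Mm052 was measured with treated spots at the scanner ceiling on 5 of 6 arrays. Over the 2 samples with copies not flagged as saturated, it averaged 1.85. On replicate 2 the copies kept were not free of saturation, since 2 spots held saturated pixels and 1 was flagged.

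WT liver also gave means above 0, but with wide and unlike spreads. Mm050 averaged 0.75 ± 0.39 (n = 6, 1.68-fold), with 1.07, 0.97, 0.59, 0.95, 0.03 and 0.88 in replicates 1 to 6. Of these only replicate 5 lay near 0. Mm052 averaged 1.03 ± 0.66 (n = 6, 2.04-fold), with 0.85, 0.29, 1.29, 2.06, 1.29 and 0.39. Without its saturated spots the mean was 1.01 in 4 samples. Mm051 averaged 0.43 ± 0.70 (n = 6, 1.34-fold), with 1.11, -0.07, 0.91, 1.12, -0.11 and -0.41. Its WT samples thus fell apart into 3 near 1 and 3 at or below 0, and the mean described none of them. The samples that were low for Mm051 were not the ones low for Mm050: replicates 2 and 6 had 0.97 and 0.88 for Mm050, while replicate 5 was low for both. Replicates 2 and 6 were the dimmest arrays for Mm051, at intensities of 811 and 913 in treated liver against 1159 and 1632 in the pool. Replicate 6 had usable values for all 120 probes though only 55 were bright, because none of its spots was flagged, so dim spots entered its normalization. With these 2 nearly alike arrays counted once, a setting chosen after seeing the data, the WT mean of Mm051 was 0.56.

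CAR-deficient liver showed small ratios. Mm051 averaged 0.52 ± 0.18 (n = 6, 1.44-fold), was above 0 in 6 of 6 samples and had the highest mean of the 78 probes with a value in this genotype. Its log2 ratios were 0.39, 0.62, 0.64, 0.21, 0.67 and 0.60 in replicates 1 to 6. Mm052 averaged 0.32 ± 0.31 (n = 6, 1.25-fold), with 0.03, 0.87, 0.41, 0.20, 0.05 and 0.35, so that replicate 2 alone passed 0.5. Mm050 averaged 0.22 ± 0.22 (n = 6, 1.16-fold), with -0.18, 0.43, 0.20, 0.17, 0.30 and 0.40. Only replicate 1 was below 0.

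In CAR/PXR-deficient liver the 3 probes parted. Mm050 averaged 0.34 ± 0.36 (n = 6, 1.26-fold), with -0.18, 0.23, 0.58, 0.37, 0.86 and 0.17 in replicates 1 to 6. Mm051 averaged 0.10 ± 0.10 (n = 6, 1.07-fold), with 0.14, 0.03, 0.21, 0.13, 0.14 and -0.07. This was the tightest group of any of the 3 probes. Mm052 averaged -0.71 ± 0.83 (n = 6, 1.64-fold lower than the pool), with -2.36, -0.37, -0.56, -0.48, -0.02 and -0.47, below 0 in 6 of 6 samples and ranked 78th of 80 probes. Replicate 1 set much of that mean, which was -0.38 without it. Its pool spots had 70.7% saturated pixels and intensities of 2472 in treated liver against 59615 in the pool. Over the 2 arrays with unsaturated spots, replicates 3 and 5, Mm052 averaged -0.29.

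With loess normalization the order of the genotypes differed between the probes. For Mm050 it ran PXR-deficient, WT, CAR/PXR-deficient and CAR-deficient, and each neighbour in that order overlapped the next. For Mm051 it ran PXR-deficient, CAR-deficient, WT and CAR/PXR-deficient, and only PXR-deficient liver was clear of its neighbour. For Mm052 it ran PXR-deficient, WT, CAR-deficient and CAR/PXR-deficient, and only the last pair of neighbours did not overlap. The unlike orders rest on near ties and depend on the normalization. With median centring Mm051 was 0.75 in WT and 0.63 in CAR-deficient liver. Mm050 was then 0.3468 in CAR-deficient and 0.3465 in CAR/PXR-deficient liver, so that all 3 probes took the order of Mm052. Set beside all tested probes, the median of the 3 probes was 0.10 in CAR/PXR-deficient, 1.46 in PXR-deficient, 0.32 in CAR-deficient and 0.75 in WT liver, against 0.01, -0.01, 0.01 and 0.01 over all tested probes. The medians near 0 over all tested probes follow from the loess normalization on the mouse spots. The 3 probes were chosen for high ratios, so nothing is read from this contrast.

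A fit over all tested probes (limma, Benjamini-Hochberg adjusted over the table, threshold 0.05) called all 3 probes higher in PXR-deficient liver, where 18.8% of the 80 probes were called higher. It also called all 3 higher in WT liver, where the background was 15%. It called Mm052 lower in CAR/PXR-deficient liver, with a background of 18.8%. In CAR-deficient liver it called none of 78 probes in either direction, with 9 at an unadjusted p under 0.05, 1 of them among the 3 probes. Since these same contrasts chose the probes, nothing is read from their calls. Each call sets a group mean against 0 and leaves out the spread between vehicle livers, of which each genotype has 1 pool, and dye bias of a probe stays in a response. All 3 calls in PXR-deficient liver held in 23 of 23 alternatives, and in WT the Mm050 call held in 23 of 24 and the Mm052 call in 24 of 24. Several alternatives left the value of a probe as it was, so such counts do not measure how stable a call is. The Mm051 call in WT, at a mean of 0.43, was lost in 11 of 24. These were the fit of WT arrays alone, the fits without WT replicate 1, 3 or 4 (0.29, 0.33 and 0.29) or without both CAR/PXR-deficient replicates 1 and 2, the scan position as a block (0.33), no background correction, no filter on dim probes, scale normalization, spike-in centring and the authors' deposited table. The Mm052 call in CAR/PXR-deficient liver was lost in 7 of 24 alternatives, among them those without replicate 1, without saturated spots and with that group fitted alone. Mm050 in that liver was called once replicate 1 was left out, at 0.44. In CAR-deficient liver all 3 probes were called under spike-in centring and in the authors' deposited table, as deposited and after median centring (0.53, 0.82 and 0.58). Mm051 was called there with scale normalization too (0.79), and so were Mm051 and Mm052 in a fit of that genotype alone.

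The responses of the 3 probes were also compared between genotypes by subtracting responses, which removes any dye effect that the arrays have in common. The SEs are those of the fit, which shares 1 spread of a probe over the 4 genotypes. For Mm051 the SDs ran from 0.10 in CAR/PXR-deficient to 0.70 in WT liver, so its SEs against WT understate the WT spread. CAR/PXR-deficient minus WT liver gave log2 differences of -0.41 (SE 0.20) for Mm050 and -0.33 (SE 0.21) for Mm051, both with overlapping samples, and neither was called. Mm050 was called without WT replicate 5 (-0.55) and with median centring (-0.80), while both were called with the sign turned in the authors' deposited table (0.90 and 0.93) and under spike-in centring (0.63 and 0.79). For Mm052 the difference was -1.74 (SE 0.31), and the CAR/PXR-deficient samples, at -2.36 to -0.02, did not reach the WT samples, at 0.29 to 2.06. The fit called 8.75% of probes lower in this comparison, Mm052 among them, and 5% lay lower without overlap. With saturated spots left out it was -1.30 on 2 CAR/PXR-deficient and 4 WT samples, and was not called. It was not called with spike-in centring (-0.63) either, and was -1.04 in the authors' deposited table. On 2 CAR/PXR-deficient arrays all copies of Mm052 were brighter than any spot behind the loess curve, as they also were on 1 PXR-deficient array. The part of saturation in this difference was not tested.

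PXR-deficient minus WT liver gave 0.71 (SE 0.21) for Mm050, 1.02 (SE 0.22) for Mm051 and 0.81 (SE 0.32) for Mm052. Mm051 lay at 1.25 to 1.76 in PXR-deficient and -0.41 to 1.12 in WT samples, without overlap, while the samples of the other probes overlapped. The fit called Mm050 and Mm051 among the 5% of probes higher in PXR-deficient liver, and 5.06% lay higher without overlap. Both calls were lost when only these 2 genotypes were fitted, with scale normalization between arrays and on the arrays scanned at high Y (the position of an array in the scan, described further on), and that of Mm050 also with median centring (0.55) and without PXR-deficient replicates 1-2 (0.57). Without WT replicate 4, Mm052 was called too, at 1.01.

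CAR-deficient minus WT liver gave -0.53 (SE 0.20) for Mm050, 0.10 (SE 0.21) for Mm051 and -0.71 (SE 0.31) for Mm052, all with overlapping samples. None of the 3 was called, 1 of 78 probes was, and 20 had an unadjusted p under 0.05, of which 2 were among the 3 probes. Without WT replicate 5, in which Mm050 was near 0, Mm050 was called at -0.67. The split WT samples of Mm051 lay on both sides of its CAR-deficient samples.

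The deficient genotypes were compared with each other in the same way. CAR/PXR-deficient minus PXR-deficient liver gave -1.12 (SE 0.21) for Mm050, -1.35 (SE 0.22) for Mm051 and -2.54 (SE 0.32) for Mm052, none of them with overlapping samples. All 3 were called lower, where 18.8% of probes were called lower and 17.7% lay lower without overlap. Mm050 was not called with spike-in centring (-0.65) or in the authors' deposited table (-0.24), nor Mm051 in the authors' deposited table (-0.38). PXR-deficient minus CAR-deficient liver gave 1.24 (SE 0.21), 0.92 (SE 0.22) and 1.52 (SE 0.32) for Mm050, Mm051 and Mm052, again without overlap for any. All 3 were called higher, with 10.3% of probes called higher and 10.4% higher without overlap. None of the 3 was called in the authors' deposited table (0.76, 0.43 and 0.88). Mm051 was not called with spike-in centring (0.83), with scale normalization (0.42), in the authors' deposited table after median centring (0.71) or on the high Y arrays alone either. CAR/PXR-deficient minus CAR-deficient liver gave 0.12 (SE 0.20), -0.43 (SE 0.21) and -1.03 (SE 0.31). Mm052 alone of the 3 was called lower and did not overlap, where 7.69% of probes were called lower and 5.13% lay lower without overlap. That call was lost in 14 of 30 alternatives. It was lost with saturated spots left out (-0.61), without CAR/PXR-deficient replicate 1 (-0.70) or both replicates 1 and 2, and without CAR-deficient replicate 2, 3, 4, 5 or 6 (-1.08 to -0.92). It was also lost with all spots kept, with median or spike-in centring (-1.13 and -0.65), in the authors' deposited table (-0.97), with only these 2 genotypes fitted and on the high Y arrays. Comparisons that share a genotype share its samples and its pool, so these differences are not separate observations.

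Each response joins a treated and a pool level, and these levels were therefore set out too, on a log2 scale normalized across arrays. They were rebuilt from the loess-normalized ratio and the mean log2 intensity of both channels. On each array the treated level less the pool level therefore gives back the ratio. The levels are thus not measured apart from the response, and differences in level add up to differences in response by construction. Since each genotype has 1 pool, its spread over 6 arrays is technical, and a response to phenobarbital and a pool that stands apart cannot be told apart from these arrays. Mm050 stood at 14.06 ± 0.73 in treated PXR-deficient liver (SD, 6 arrays), against 12.50 ± 0.36 in its pool. In the other genotypes it was 12.79 ± 0.31 in treated against 12.46 ± 0.25 in the pool (CAR/PXR-deficient), 12.30 ± 0.75 against 12.08 ± 0.61 (CAR-deficient) and 12.58 ± 0.22 against 11.83 ± 0.39 (WT). The high PXR-deficient ratio of Mm050 thus went with a treated level 1.48 above WT and a pool level 0.67 above WT.

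Mm051 stood at 13.23 ± 0.24 in treated PXR-deficient liver, against 11.74 ± 0.10 in its pool. It was 12.38 ± 0.28 in treated against 12.28 ± 0.20 in the pool in CAR/PXR-deficient liver, and 12.38 ± 0.28 against 11.86 ± 0.21 in CAR-deficient liver. Treated levels were the same to 2 decimals in CAR/PXR-deficient and CAR-deficient liver, and the difference of -0.43 between their responses went with pools that differed by 0.42. WT had 11.76 ± 0.95 in treated liver against 11.33 ± 0.48 in its pool, the lowest levels and the widest spread of the 4 genotypes in each channel.

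Mm052 stood at 15.63 ± 0.27 in treated PXR-deficient liver, against 13.78 ± 0.22 in its pool, with treated spots at the ceiling on 5 of 6 arrays. In CAR/PXR-deficient liver it was 14.07 ± 0.72 in treated liver against 14.78 ± 0.40 in the pool. It was 13.78 ± 0.34 in treated against 13.47 ± 0.59 in the pool in CAR-deficient liver, and 14.65 ± 0.63 against 13.62 ± 0.15 in WT. The negative CAR/PXR-deficient ratio of Mm052 therefore went with a pool 1.16 above the WT pool and a treated level 0.58 below the WT treated level. Both differences are limited by saturation, of that pool on 4 of 6 arrays and of the WT treated channel on 2. The CAR/PXR-deficient treated levels were 12.76 and 13.73 in replicates 1 and 2, where that channel was dim. In replicates 3 to 6 they were 14.25, 14.57, 14.49 and 14.61. The mean treated level of Mm052 in CAR/PXR-deficient liver was 0.29 above that of CAR-deficient liver, although its response was lower by 1.03, and the pools of those genotypes differed by 1.31. A change in RNA per cell and a change in the number of cells that hold the RNA cannot be told apart in whole liver.

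How an array is centred moves all of these ratios together. In the authors' deposited table, whose values run with the scanner ratios (r of 0.77 to 0.97 per array, median 0.92) but whose centring the labels and headers do not state, the median of all tested probes was 1.34 in CAR/PXR-deficient, 0.35 in PXR-deficient, 0.61 in CAR-deficient and -0.21 in WT liver. Centring on the calibration spike-ins moved these medians to 1.13, 0.36, 0.65 and -0.36. In the authors' deposited table Mm050 had medians over arrays of 1.61 in CAR/PXR-deficient, 1.96 in PXR-deficient, 1.15 in CAR-deficient and 0.72 in WT liver. Mm051 had 1.27, 1.78, 1.38 and 0.58 in the same genotypes of the authors' deposited table. On that scale the CAR/PXR-deficient ratios of Mm050 and Mm051 were above WT, not below it. Mm052 has values in the authors' deposited table for 3 CAR/PXR-deficient, 2 PXR-deficient, 6 CAR-deficient and 5 WT arrays, with medians of 0.18, 2.04, 1.11 and 1.64.

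The ratios were also taken relative to the median of all tested probes on the same scale. From the authors' deposited table, the fitted means less that median were 0.30, 1.52, 0.51 and 0.95 for Mm050 in CAR/PXR-deficient, PXR-deficient, CAR-deficient and WT liver. They were 0.12, 1.49, 0.80 and 0.74 for Mm051 in the authors' deposited table. For Mm052 they were -1.15, 1.69, 0.55 and 1.44 in the authors' deposited table. With spike-in centring the same quantity was 0.39, 1.81, 0.38 and 1.25 for Mm050. It was 0.15, 1.80, 0.67 and 0.85 for Mm051, and -0.58, 2.12, 0.54 and 1.54 for Mm052. On each of these scales PXR-deficient liver had the highest mean of the 4 genotypes for each probe, and Mm052 was the only one of the 3 below the median in CAR/PXR-deficient liver. In WT the scales lay further apart after this subtraction than before it, since the WT median itself moved below 0.

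The arrays differed in where their spot grid began in the scan, at high Y or low Y, with 3 arrays of each deficient genotype at each position but 5 WT arrays at high Y and 1 at low Y. Within high Y, CAR/PXR-deficient minus WT liver gave -0.30, -0.43 and -2.14 for Mm050, Mm051 and Mm052. Within low Y, against the 1 WT array, it gave -0.62, 0.44 and -0.83. PXR-deficient minus WT liver gave 0.91, 0.996 and 0.79 at high Y and 0.59, 1.81 and 1.38 at low Y, all of 1 direction. CAR-deficient minus WT liver gave -0.61, -0.03 and -0.99 at high Y and -0.55, 0.89 and 0.08 at low Y. The direction of Mm051 against WT thus turned with the position for CAR/PXR-deficient and CAR-deficient liver, on the single low Y array in which Mm051 was -0.41.

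The deficient genotypes had 3 arrays at each position. PXR-deficient replicates 1 and 2, counted as 1 sample elsewhere, lay at different positions, so the PXR-deficient values at high and low Y share a sample. CAR/PXR-deficient minus PXR-deficient liver gave -1.22, -1.43 and -2.93 for Mm050, Mm051 and Mm052 at high Y and -1.22, -1.38 and -2.21 at low Y. PXR-deficient minus CAR-deficient liver gave 1.53, 1.02 and 1.79 at high Y and 1.14, 0.93 and 1.29 at low Y. CAR/PXR-deficient minus CAR-deficient liver gave -0.40 and -1.14 for Mm051 and Mm052 at high Y, and -0.45 and -0.91 at low Y. For Mm050 it gave 0.31 at high Y and -0.07 at low Y.

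Over the 23 samples the ratios of the 3 probes ran alike. The probes were chosen for high ratios in the same genotypes, so this likeness over genotypes follows from the choice and is no evidence of its own. Pearson's r was 0.70 between Mm050 and Mm051 (Spearman's rho 0.62), 0.70 between Mm050 and Mm052 (rho 0.66) and 0.72 between Mm051 and Mm052 (rho 0.69). Without the 2 samples farthest from the median of the second-named probe it was 0.72, 0.68 and 0.79. The points share arrays, pools and normalization. Within genotypes of 6 samples r was 0.36 for Mm050 with Mm051, 0.80 for Mm050 with Mm052 and -0.18 for Mm051 with Mm052 in CAR/PXR-deficient liver. In CAR-deficient liver these were 0.57, 0.64 and 0.36, and in WT 0.33, -0.26 and 0.64. In PXR-deficient liver, with 5 samples, they were 0.89, 0.50 and 0.73. The 0.80 of CAR/PXR-deficient liver includes replicate 1, the lowest sample for both Mm050 and Mm052.

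None of the 3 probes was the closest match of another. Of 78 other probes, Mm050 was most like Mm084 (r = 0.88, 15 samples), Mm039 (r = 0.77, 16 samples) and Mm038 (r = 0.73, 14 samples), with Mm052 and Mm051 next. Mm051 was most like Mm036 (r = 0.84, 23 samples) and Mm084 (r = 0.81, 15 samples), then Mm052 and then Mm007 (r = 0.72, 23 samples). Mm052 was most like Mm038 (r = 0.88, 14 samples), Mm039 (r = 0.85, 16 samples) and Mm084 (r = 0.84, 15 samples). These likenesses rest on unlike sizes and samples. Mm084 averaged 0.20 ± 0.06 in 3 PXR-deficient samples against 0.00 ± 0.14 in 2 WT samples, a far smaller response than that of the 3 probes. Mm038 and Mm039 averaged 3.43 ± 0.62 and 3.05 ± 0.48 in 5 PXR-deficient samples against 3.01 ± 0.76 and 2.66 ± 0.67 in 6 WT samples, so that they were high in both, and Mm038 had no value in CAR-deficient liver. Mm036 averaged 0.65 ± 0.22 in 5 PXR-deficient samples against 0.10 ± 0.36 in 6 WT samples, high in the genotype in which Mm051 was high but at a smaller size.

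The nearest neighbours by number were too dim to compare. Mm048, the nearest lower number on the array, was bright on 8 of 24 arrays and Mm053, the nearest higher one, on 3, so neither was tested. Where it had a value, Mm048 averaged 0.20 ± 0.43 in 6 CAR/PXR-deficient samples and -0.09 ± 0.21 in 2 WT samples, and it was -0.26 in the 1 PXR-deficient sample that measured it. Mm053 was -1.29 in 1 CAR/PXR-deficient sample, -0.31 in 1 PXR-deficient sample and -0.03 ± 0.29 in 2 WT samples.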

How the data were processed

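Per the file headers, the deposited spot files give the mean and median pixel intensity, local background, percent of saturated pixels and a flag for each of 578 spots in both channels. The sources used here do not give the scanner, its software or the reasons for flags. The authors' deposited value table holds log2 ratios, as set against the scanner values, with array medians of -0.43 to 2.95. Its centring is unknown, and it served as an alternative.

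In R 4.3.3 with limma 3.58.1, intensities were background-corrected (normexp, offset 50) and ratios normalized by loess on unflagged mouse spots. Spots flagged -50 were left out. Saturated spots (flag -100) were kept, and copies averaged. A probe was tested if at least 2 of its 3 spots exceeded local background by 2 SD in either channel on at least 12 arrays. All 23 samples entered 1 group-means fit (lmFit, eBayes). Levels per channel were rebuilt from the loess-normalized ratios and mean log2 intensities after Aquantile normalization. Arrays had 45 to 120 probes with a usable value (median 82.5), and the number of arrays limits the precision. Alternatives changed the spots used, correction, normalization, filter, fit and samples. Named besides the 3 probes were their nearest numbers and, for each, the 3 most correlated other probes with at least 12 shared samples. The 3 probes and these choices were made with earlier results of these data known. Only the limma fit was tested on simulated data, with independent noise. Background correction, normalization, saturation and the levels per channel were not part of that test.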

Additional observations from a re-analysis of the deposited data

Results flagged for a closer look

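In CAR/PXR-deficient liver replicate 1 of Mm052 stood apart from the other 5 samples. Its log2 ratio of -2.36 was separated from the next sample by 0.77 of the range of the group. This is past the limit that Dixon's test sets for 6 samples, which chance passes in about 1 group of 20. That rate is for a group named in advance. Here the group was flagged because it passed, and the probes were chosen on these ratios. The rate therefore does not apply to it, and nothing is read from the test. On the array of replicate 1 the Mm052 pool spots were saturated, and the part of saturation in the value was not tested.

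The limma fit called the differences in response between genotypes that are listed here. Only the sizes are given, and nothing is read from the calls, because the probes were chosen on these ratios. For Mm052 the response was lower in CAR/PXR-deficient liver than in WT (-1.74), PXR-deficient (-2.54) and CAR-deficient liver (-1.03). With loess normalization every CAR/PXR-deficient sample was below 0 and every other sample above 0. With spike-in centring the CAR/PXR-deficient mean was 0.55, and its 3 values in the authors' deposited table were 0.17 to 0.23. The call against WT was lost without saturated spots and with spike-in centring, and that against CAR-deficient liver in 14 of 30 alternatives. For Mm050 and Mm051 it was lower in CAR/PXR-deficient than in PXR-deficient liver (-1.12 and -1.35), but neither was called in the authors' deposited table (-0.24 and -0.38). PXR-deficient liver was higher than WT for Mm050 (0.71) and Mm051 (1.02), and higher than CAR-deficient liver for Mm050 (1.24), Mm051 (0.92) and Mm052 (1.52).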

How the results depend on the processing

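Of 552 values of the 3 probes, in a genotype or against WT under the alternatives, 511 stayed within the replicate SD of the value reported. The other 41 moved further. Leaving out a replicate cannot move a mean beyond that SD. Changing only the filter on dim probes or the genotypes fitted left these values as they were. The 511 were thus partly fixed in advance and do not measure how stable the values are. The sign turned in 15 of the 552, and 9 of these came with spike-in centring or the authors' deposited table. They were Mm052 in CAR/PXR-deficient liver (0.55 when arrays were centred on spike-ins and 0.19 in the authors' deposited table), Mm050 and Mm051 in CAR/PXR-deficient minus WT liver, Mm050 in CAR-deficient minus WT liver, and Mm052 in the last comparison with spike-in centring alone. The other 6 were Mm051 in CAR-deficient minus WT liver, which lay near 0. The causes were not tested.

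With spike-in centring the CAR/PXR-deficient means were 1.52 for Mm050 and 1.28 for Mm051. The PXR-deficient means were 2.17, 2.16 and 2.49 for Mm050, Mm051 and Mm052, and the CAR-deficient means 1.04, 1.32 and 1.20. In the same probe order, differences from WT were 0.63, 0.79 and -0.63 for CAR/PXR-deficient, 1.29, 1.67 and 1.31 for PXR-deficient and 0.15, 0.83 and 0.024 for CAR-deficient liver. From the authors' deposited table the CAR/PXR-deficient means were 1.64 for Mm050 and 1.46 for Mm051, and the PXR-deficient means 1.84 for Mm051 and 2.04 for Mm052. The CAR-deficient means from the authors' deposited table were 1.11, 1.41 and 1.16, and 0.53 for Mm050 and 0.82 for Mm051 once its arrays were centred on their medians. Differences from WT in the authors' deposited table were 0.90 and 0.93 for Mm050 and Mm051 in CAR/PXR-deficient, 1.13 for Mm050 in PXR-deficient, and 0.37, 0.88 and -0.066 in CAR-deficient liver. With median centring Mm051 and Mm052 were 1.69 and 2.02 in PXR-deficient liver, and Mm050 was 1.15 in WT and -0.80 in CAR/PXR-deficient minus WT liver. With scale normalization Mm051 and Mm052 were 1.21 and 1.52 in PXR-deficient liver, and Mm051 was 0.79 in CAR-deficient liver.

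The number of probes called over the table moved more widely: 28 in CAR/PXR-deficient liver (8 to 75 over the alternatives), 25 in PXR-deficient (12 to 30), 0 in CAR-deficient (0 to 53) and 19 in WT (3 to 20). Against WT it was 12 for CAR/PXR-deficient (5 to 75), 13 for PXR-deficient (2 to 30) and 1 for CAR-deficient liver (0 to 50). Between deficient genotypes it was 27 for CAR/PXR-deficient minus PXR-deficient (14 to 37), 7 for CAR/PXR-deficient minus CAR-deficient (0 to 17) and 15 for PXR-deficient minus CAR-deficient (3 to 20).

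Replicate numbers did not meet the rule for pairing, a correlation over 0.1 in every pair: deviations of same-numbered samples correlated at -0.51 to 0.66 (median 0.003) over 36 pairs of groups and numbers. Between PXR-deficient and WT liver 5 of 6 did exceed it, at 0.18 to 0.57, and number 1 had 0.0075. With the replicate number as a block no call of the 3 probes changed, and PXR-deficient minus WT liver gave 0.72, 1.03 and 0.75. Settings with the scan position, with 3 alike pairs counted once or without CAR/PXR-deficient replicates 1 and 2 were chosen after seeing the data. Saturation limits Mm052, 1 pool per genotype limits every response, and with no dye swap a dye bias of a probe stays in it.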
